A study of Mus musculus with 40 samples.

Results

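The livers compared were those of 5 SBR mice given WUSTL0717 (treated) and 5 sham mice given vehicle, taken by sample title. They are 10 of the 40 libraries of the series and 10 of its 18 liver libraries, and the other 8 liver libraries, from SBR mice given vehicle, are shown beside them. All mice were C57BL/6 wild-type males operated on at 8 weeks of age. SBR (small bowel resection) removed 50 to 60% of the small bowel according to the sample labels, and sham mice had surgery without resection. The methods of the study state a larger share. Dosing by gavage with vehicle or with WUSTL0717 (30 mg/kg) began 3 weeks after the operation and went on daily for 7 weeks, and the median right lobe of the liver was taken 10 weeks after surgery. WUSTL0717 is an agonist of the liver X receptor (LXR) made to stay in the gut, and an amide analog of the LXR agonist GW3965. No sham mouse received the drug, so a difference between treated and sham livers holds resection and drug together, and they cannot be told apart by this comparison alone. For some of these genes, SBR vehicle minus sham, which shares the sham livers, or treated minus SBR vehicle, which shares the treated livers, is also given.

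Loss of small bowel changes what the portal vein brings to the liver, including bile acids, lipids and microbial products, and liver injury with fibrosis is a known complication of short bowel. Fibrosis is laid down mainly by hepatic stellate cells, which make collagen once activated by signals such as TGF-beta and PDGF, and it is often accompanied by a ductular reaction, an expansion of cells with bile duct markers. In male mice, pulses of growth hormone acting through the transcription factor STAT5 keep up a group of liver genes, among them those of the major urinary proteins, and steady growth hormone favours the female pattern. The nuclear receptors CAR, PXR, PPAR and LXR set the levels of liver genes for drug and lipid metabolism.

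Values are log2 TPM, transcript abundance per length on a fixed total, after the authors' correction with ComBat. The labels put all liver libraries in 1 batch and all intestinal libraries in the other, whereas the methods of the study speak of batch effects between experimental groups and do not name the batches given to ComBat. If they were those of the labels, each gene was rescaled alike in all liver libraries, which keeps their order, and in either case the size of a difference is on the corrected scale. What the correction did to treated minus sham was not tested. Read totals were not part of the table, so the depth of each library is unknown. Turned back to TPM, the libraries summed to between 686816 and 819788. The median over the tested genes lay between 3.06 and 3.37 in sham, 3.44 and 3.74 in treated and 3.14 and 3.78 in SBR vehicle livers. The mean level of 17 tested hepatocyte markers was between 7.98 and 8.41 in sham, 8.03 and 8.36 in treated and 7.13 and 8.05 in SBR vehicle livers. The labels do not say more of the replicates than a number, and p-values measure the spread between these mice.

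On the first principal component of the 18 liver libraries, which held 47.8% of the variance, sham livers scored -47.3, -62.4, -40.7, -32.8 and -46.1 and treated livers 3.8, -5.0, -8.9, 35.4 and 8.4. All treated livers scored above all sham livers, and treated livers 1, 2, 3 and 5 lay between all sham livers and 6 of the 8 SBR vehicle livers. Treated replicate 4 lay among the SBR vehicle livers, which ran from -13.4 to 43.0 with a median of 29.1. The mean score was 6.8 ± 17.4 (SD, n = 5) in treated and -45.8 ± 10.9 (SD, n = 5) in sham livers, a difference of 52.6 (p = 0.00794 by an exact permutation test, two-sided, which is as small as 5 against 5 can give). Treated minus SBR vehicle was -17.7, a difference within the spread (exact two-sided permutation test, p = 0.139). SBR vehicle replicates 2 and 3 stood apart on the second component (14.5% of the variance), with scores of -54.0 and -32.6 against -15.2 to 16.4 elsewhere. SBR vehicle replicate 7 held pancreatic transcripts: the trypsinogen gene *Prss2* was at 8.73 there and between 1.95 and 2.16 in the other 17 liver libraries. These libraries are in the shared estimate of the spread, and 6727 genes were called in treated minus sham without replicate 2, 4771 without replicate 3 and 4292 without replicate 7, against 4580 with all libraries.

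**Figure D1:**
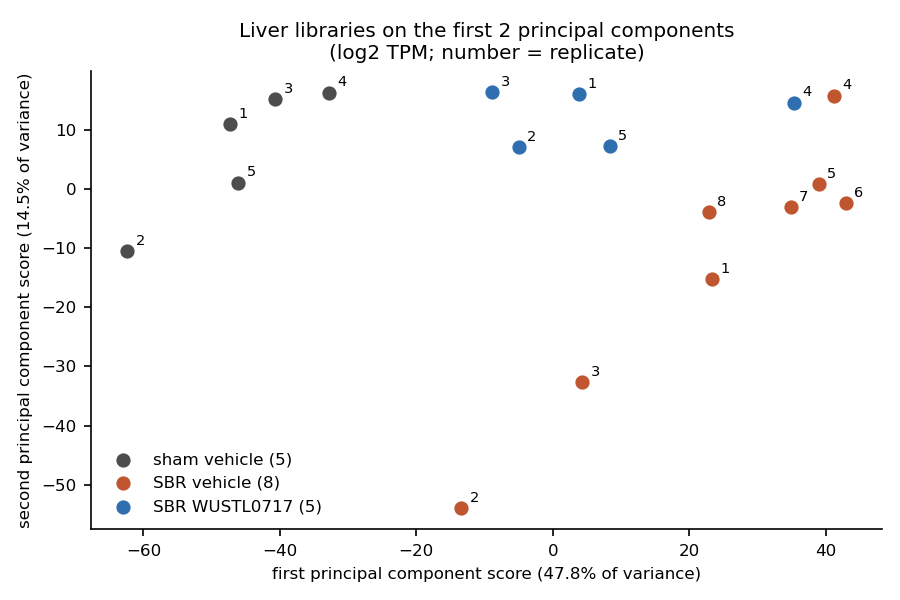
Scores of the 18 liver libraries on the first (x axis) and second (y axis) principal component of log2 TPM; each point is 1 liver, coloured by group and numbered by replicate. The 5 sham livers are at the left (-62.4 to -32.8), treated livers 1, 2, 3 and 5 in the middle (-8.9 to 8.4), and treated replicate 4 (35.4) lies among SBR vehicle livers.

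Of 15901 genes with a mean of at least 1 over the 18 liver libraries, 4580 (28.8%) differed between treated and sham livers at an adjusted p under 0.05 (limma, all adjusted p-values below are from this fit unless named otherwise). Called higher in treated livers were 4436 genes (27.9%) and lower 144 genes (0.906%). This split rests on the scaling: the median difference over all tested genes was 0.27, and when each library was centred on its own median, which brought it to -0.03, 1700 genes (10.7%) were called higher and 1420 (8.93%) lower. Counts after this centring are therefore given beside those on the deposited values, each to be read against the share over all genes on its scale, and a call that held in both is a change relative to the other genes of the liver. The values of the 5 treated and 5 sham livers did not overlap in 4361 genes with treated livers higher (27.4%) and in 100 genes with treated livers lower (0.629%). With a difference of at least 1 log2 unit also required, 447 genes were called, of which 412 were higher and 35 lower. For comparison, 5953 genes (37.4%) were called higher and 710 (4.47%) lower in SBR vehicle than in sham livers, and 229 (1.44%) higher and 423 (2.66%) lower in treated than in SBR vehicle livers. Without treated replicate 4, 2456 genes were called in treated minus sham, and without sham replicate 2, 2688 genes.

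**Figure D2:**
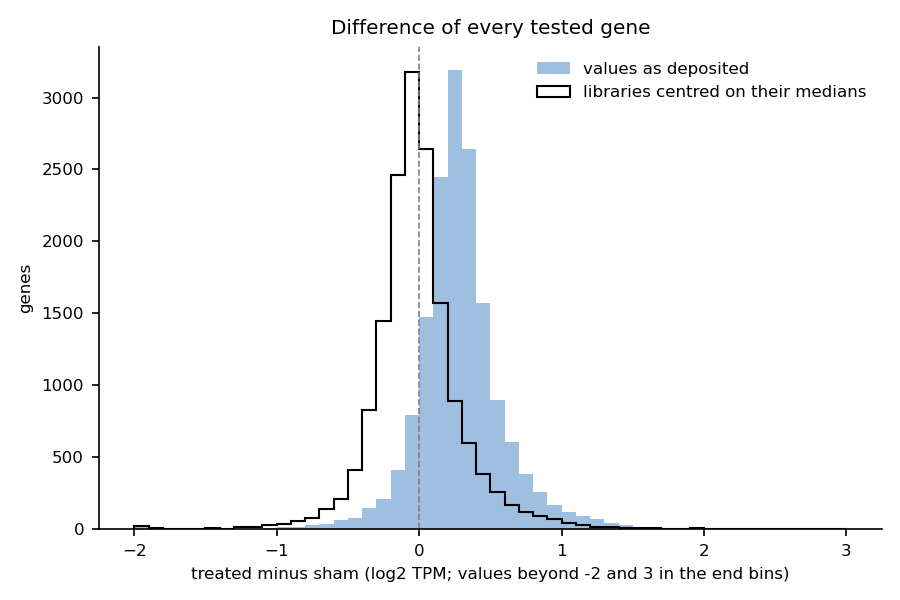
Number of genes (y axis) by treated minus sham difference in log2 TPM (x axis) for the 15901 tested genes, on the deposited values (filled) and with each library centred on its median (line). The filled distribution lies to the right of 0 (median 0.27) and the centred one near it (median -0.03).

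The major urinary protein genes, whose products are made by the male liver and carry pheromones into urine, had the lowest median of the lists relative to sham. Of 10 tested members, 7 fell and none rose, and 8 were lower after centring. Their median difference was -2.69 against 0.27 over all genes. *Mup15* (chromosome 4, 61435790 to 61439743 in GRCm38) was at 8.81, 8.42, 7.95, 5.51 and 8.21 in sham livers and at 3.69, 2.26, 1.95, 1.13 and 2.29 in treated livers. The highest treated liver lay well below the lowest sham liver, a difference of -5.52 (SE 0.48, adjusted p = 7.68e-07). *Mup7* (chromosome 4, 60066469 to 60070475 in GRCm38) was at 7.39, 7.18, 6.86, 4.97 and 6.60 in sham and at 3.13, 0.90, 1.02, 0.60 and 1.63 in treated livers (-5.14, SE 0.42, adjusted p = 4.15e-07). *Mup11* was at 5.79, 5.58, 5.25, 4.61 and 5.39 in sham and at 1.82, 0.63, 0.87, 0.30 and 1.09 in treated livers (-4.38, SE 0.23, adjusted p = 1.62e-09). For both genes too, the groups were far apart, and treated replicate 1 was the highest and replicate 4 the lowest of the treated livers. *Mup3*, which kept a higher level, was at 7.77, 7.63, 7.87, 7.63 and 7.72 in sham and at 6.21, 5.83, 6.11, 5.15 and 5.85 in treated livers, and fell by 1.90 log2 units (SE 0.26, adjusted p = 9.79e-05). *Mup17* and *Mup21* differed by -3.33 and -2.14 (adjusted p = 1.1e-05 and 8.35e-05). In each of these 6 genes all treated livers lay below all sham livers and above all SBR vehicle livers: treated minus SBR vehicle was 2.04 (adjusted p = 0.0155) for *Mup15*, 1.64 (adjusted p = 0.0217) for *Mup7*, 1.15 (adjusted p = 0.0078) for *Mup11* and 1.71 (adjusted p = 0.00161) for *Mup3*. SBR vehicle livers were at the lowest listed value in 3 of 8 libraries for *Mup11* and *Mup15* and in 2 for *Mup17*, so differences from that group are not fold changes there. Reads that fitted several places or genes were not counted by the authors, and the members of this family are near-identical copies, so reads can be missing or shared out between them and the single genes are uncertain.

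The promoters of the 3 called members with the smallest p that hold the letters TATATAA are shown here because the members fell together. They cover 250 bases before to 50 bases after the gene start, on the minus strand of chromosome 4, and come from RefSeq (GRCm38.p6). The capitals mark the match, and the regions are chr4:60662346-60662645, chr4:61439655-61439954 and chr4:61595783-61596082.
Mup11: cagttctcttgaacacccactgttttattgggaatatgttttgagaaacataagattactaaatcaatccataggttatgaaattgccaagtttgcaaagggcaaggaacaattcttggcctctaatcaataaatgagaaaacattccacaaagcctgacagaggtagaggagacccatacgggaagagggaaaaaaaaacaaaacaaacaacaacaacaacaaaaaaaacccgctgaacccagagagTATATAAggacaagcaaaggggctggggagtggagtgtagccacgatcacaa
Mup15: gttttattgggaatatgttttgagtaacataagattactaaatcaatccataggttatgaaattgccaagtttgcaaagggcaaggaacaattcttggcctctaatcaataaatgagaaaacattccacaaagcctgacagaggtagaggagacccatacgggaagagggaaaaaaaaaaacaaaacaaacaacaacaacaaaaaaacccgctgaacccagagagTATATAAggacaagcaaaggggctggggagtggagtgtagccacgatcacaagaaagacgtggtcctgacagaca
Mup17: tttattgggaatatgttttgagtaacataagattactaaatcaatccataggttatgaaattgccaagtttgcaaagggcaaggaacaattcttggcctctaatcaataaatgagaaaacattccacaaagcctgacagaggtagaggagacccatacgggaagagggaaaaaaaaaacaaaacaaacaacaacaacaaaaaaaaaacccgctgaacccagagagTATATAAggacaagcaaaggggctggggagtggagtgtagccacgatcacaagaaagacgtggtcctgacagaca
The match starts 2 bases before the annotated start of *Mup11* and 25 bases before those of *Mup15* and *Mup17*. Of 8 tested members with a promoter in the RefSeq table, 7 held TATATAA on either strand, as did 6 of the 7 called among them and 3.24% of the 32851 promoters in it. The members are near-identical copies, so their matches are not independent of each other. Any link between these letters and the fall was not tested. The letters TTCNNNGAA, the core of STAT5 sites, were in the promoter of 1 of 12 male-biased genes (*C8a*) and in 8.30% of all promoters, a statement on this window of 300 bases only.

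Other genes with higher levels in male liver were also among those that fell. Of 18 tested male-biased genes, 12 fell and none rose, 14 were lower after centring, and the median difference was -0.81. *Serpina1e*, a serine protease inhibitor of the alpha-1-antitrypsin family, was at 8.29, 8.37, 7.45, 7.04 and 7.81 in sham and at 3.75, 3.74, 3.96, 2.73 and 3.43 in treated livers. The groups were far apart, and the difference was -4.27 (SE 0.34, adjusted p = 3.63e-07). *Slco1a1*, an organic anion transporter of the hepatocyte, was at 4.98, 4.78, 4.61, 4.61 and 4.76 in sham and at 3.15, 1.68, 1.40, 1.46 and 1.89 in treated livers (-2.84, SE 0.31, adjusted p = 9.07e-06). *Cyp7b1*, the oxysterol hydroxylase of the alternative bile acid pathway, was at 5.24, 5.05, 5.00, 4.64 and 5.04 in sham and at 4.29, 3.37, 3.22, 3.37 and 3.57 in treated livers (-1.43, SE 0.18, adjusted p = 5.2e-05). For both genes all treated livers were low, and treated replicate 1 was the nearest to sham. *Cyp2u1*, a fatty acid hydroxylase, and *Cyp2c23*, an epoxygenase, differed by -1.51 and -0.79 (adjusted p = 4.47e-05 and 0.000828). The same genes were lower still after resection without the drug: SBR vehicle minus sham was -4.87 for *Serpina1e*, -3.71 for *Slco1a1*, -2.39 for *Cyp7b1* and -2.53 for *Cyp2u1*. *Cyp7b1* and *Cyp2u1* were higher in treated than in SBR vehicle livers, by 0.96 (adjusted p = 0.00679) and 1.02 (adjusted p = 0.0062), while for *Serpina1e* and *Slco1a1* that difference was 0.60 (adjusted p = 0.337) and 0.88 (adjusted p = 0.0836).

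Of 13 tested female-biased genes, 7 rose and none fell (4 higher and 1 lower after centring, 4 higher without treated replicate 4 and 4 without sham replicate 2). *Cyp3a16*, a cytochrome P450 of the young and female liver, was at 1.85, 1.58, 1.58, 1.88 and 1.55 in sham and at 3.30, 2.99, 3.06, 3.45 and 3.35 in treated livers, with no overlap (1.54, SE 0.14, adjusted p = 1.68e-06). *Cyp3a44* and *Cyp2a4*, which also encode cytochromes P450, differed by 1.59 and 1.43 (adjusted p = 8.34e-06 and 0.00213), and *Abcd2*, a peroxisomal transporter, by 0.89 (0.00603). In the growth hormone and STAT5 list, 3 of 17 tested genes fell and 4 rose, and after centring 4 were lower and 1 higher. The share that rose was below the 27.9% of all genes, and below their 10.7% after centring, while 0.906% of all genes fell and 8.93% were lower after centring. The number that rose was 2 without sham replicate 2 and 7 without SBR vehicle replicate 2. The growth hormone receptor gene *Ghr* was at 5.38, 5.03, 5.44, 5.38 and 5.34 in sham and at 4.86, 5.07, 5.13, 4.74 and 4.73 in treated livers, which lay lower by 0.41 log2 units (SE 0.14, adjusted p = 0.0399) with overlapping groups, a call lost when sham replicate 1, 3, 4 or 5 or treated replicate 1, 4 or 5 was left out. *Igfals*, which encodes a carrier of IGF1 in blood, fell by 0.74 (adjusted p = 0.00826), and *Igfbp2*, an IGF-binding protein, rose by 0.64 (adjusted p = 0.0038), a call that was lost after centring (adjusted p = 0.0962).

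Drug-metabolizing genes that CAR and PXR control were split. Of 25 tested, 11 rose and 3 fell, and 10 were higher and 6 lower after centring. In SBR vehicle minus sham 11 of them were called higher and 8 lower, beside 37.4% and 4.47% of all genes. In treated minus SBR vehicle 5 were called higher and 0 lower, beside 1.44% and 2.66% of all genes. *Cyp3a11*, a main drug-oxidizing enzyme of mouse liver, was at 6.21, 6.02, 6.24, 6.78 and 6.20 in sham and at 8.24, 8.01, 7.86, 8.61 and 8.28 in treated livers, and rose by 1.91 (SE 0.19, adjusted p = 4.44e-06). *Gsta1* and *Gstm3*, glutathione transferases, rose by 3.14 and 2.82 (adjusted p = 9.96e-05 and 7.07e-05). The P450 and transferase copies in these families are similar in sequence, so their single values carry the same limit as those of the *Mup* genes. Among 31 tested antioxidant genes, most of them targets of NRF2, 19 rose and none fell (14 higher and 3 lower after centring). In SBR vehicle minus sham 20 of the 31 were called higher and 1 lower, and in treated minus SBR vehicle 1 higher and 0 lower. The quinone reductase gene *Nqo1* rose by 1.37, the sulfiredoxin gene *Srxn1* by 1.87, the carbonyl reductase gene *Cbr3* by 2.46 and the heme oxygenase gene *Hmox1* by 0.96 (adjusted p between 0.000438 and 0.00108). The letters TGACNNNGC, the core of the antioxidant response element, were in the promoters of 8 of 25 of these genes, of 3 of the 14 called among them, and in 12.4% of all promoters.

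Named genes of lipid droplets and fatty acid use were above sham in treated livers. *Apoa4*, an apolipoprotein that liver makes when fat accumulates, was at 9.20, 8.08, 8.17, 8.14 and 8.88 in sham and at 11.35, 10.86, 11.24, 11.52 and 11.33 in treated livers. All treated livers were above all sham livers, and the difference was 2.76 (SE 0.25, adjusted p = 1.13e-06). *Cidec*, a lipid droplet protein, was at 4.53, 4.29, 4.08, 4.51 and 4.53 in sham and at 7.00, 6.43, 6.81, 7.98 and 6.93 in treated livers (2.64, SE 0.24, adjusted p = 1.13e-06). *Pparg*, the nuclear receptor of fat storage, was at 3.38, 3.35, 3.40, 3.20 and 3.21 in sham and at 4.54, 4.47, 4.81, 4.68 and 4.58 in treated livers (1.31, SE 0.13, adjusted p = 2.43e-06). None of these 3 genes was called against SBR vehicle livers: treated minus SBR vehicle was 0.14 (adjusted p = 0.834) for *Apoa4*, -0.09 (adjusted p = 0.898) for *Cidec* and 0.14 (adjusted p = 0.587) for *Pparg*, with standard errors of 0.23, 0.22 and 0.11. *Fgf21*, a hormone of fasting and metabolic stress, was at 1.01, 1.44, 1.76, 1.68 and 1.05 in sham and at 4.53, 3.83, 3.00, 3.86 and 4.09 in treated livers and rose by 2.47 (SE 0.30, adjusted p = 3.36e-05). Of 33 tested PPAR alpha targets and oxidation genes, 17 rose and none fell (11 after centring and 11 without treated replicate 4 or without sham replicate 2), with the fatty acid transporter gene *Cd36* at 1.45 and the thioesterase gene *Acot2* at 1.89 (adjusted p = 0.000227 and 0.000233). Of 20 tested genes of fatty acid and triglyceride synthesis, 9 rose and 2 fell (6 higher and 2 lower after centring), and *Plin2*, which coats lipid droplets, *Elovl5*, an elongase, and *Me1*, malic enzyme, differed by 1.16, 1.18 and 0.92 (adjusted p = 0.000724, 0.00133 and 0.00281).

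Cholesterol synthesis and uptake genes were called higher in 11 of 24 cases, but in 3 after centring, 5 without treated replicate 4 and 3 without sham replicate 2. After centring that share was near the 10.7% of all genes. *Hmgcs1*, an early step of the synthesis, rose by 1.21 (adjusted p = 0.0109). Of 17 tested LXR targets and sterol efflux genes, 7 rose and none fell (4 higher and 2 lower after centring). The cholesterol exporter gene *Abca1* (chromosome 4, 53030787 to 53159895 in GRCm38) was at 6.01, 5.66, 6.09, 6.15 and 6.12 in sham and at 5.82, 6.04, 6.26, 6.18 and 5.76 in treated livers. The groups overlapped, and the difference was 0.00 (SE 0.15, adjusted p = 0.986). Under 30 other settings it ran from -0.30 to 0.07, changed sign in 7 and had a smallest adjusted p of 0.0402. *Abcg1*, another exporter, was at 2.72, 2.35, 2.53, 2.62 and 2.80 in sham and at 3.34, 3.32, 3.25, 3.71 and 3.45 in treated livers and rose by 0.81 (SE 0.13, adjusted p = 0.00038). *Scd1*, a fatty acid desaturase, was at 9.67, 9.23, 9.28, 8.93 and 9.44 in sham and at 9.81, 10.38, 10.73, 10.53 and 10.13 in treated livers, and rose by 1.01 (SE 0.26, adjusted p = 0.00992) with no overlap. *Srebf1*, the lipogenic transcription factor under LXR, differed by -0.38 (SE 0.28, adjusted p = 0.289), and was called lower when libraries were weighted (adjusted p = 0.0124). None of these 4 genes was called between treated and SBR vehicle livers, where the differences were 0.07 (adjusted p = 0.877), -0.05 (adjusted p = 0.896), 0.32 (adjusted p = 0.563) and 0.22 (adjusted p = 0.746). The lipoprotein lipase gene *Lpl* and the desaturase gene *Scd2* rose over sham by 1.34 and 2.28 (adjusted p = 5.51e-05 and 7.65e-05). For these, SBR vehicle minus sham was 1.80 and 2.51. Treated minus SBR vehicle was -0.47 (adjusted p = 0.102) and -0.24 (adjusted p = 0.752). None of the 17 list genes was called between treated and SBR vehicle livers.

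Of 13 tested bile acid synthesis genes, 1 rose (*Hsd17b4* of peroxisomal side-chain shortening, 0.44, adjusted p = 0.0336) and 1 fell (*Cyp7b1*) on the deposited values. After centring, *Hsd17b4* was not called, and 4 of the 13 were lower. Without SBR vehicle replicate 2, 2 of them fell, and without treated replicate 4 or sham replicate 2 none rose. *Cyp8b1*, which makes the 12-hydroxylated bile acids, was at 5.64, 4.70, 4.91, 5.13 and 5.34 in sham and at 5.36, 5.70, 6.01, 4.44 and 5.36 in treated livers. Those groups overlapped (0.23, SE 0.31, adjusted p = 0.567), while SBR vehicle livers lay between 3.18 and 4.85 (median 4.22), and treated minus SBR vehicle was 1.19 (adjusted p = 0.0218). The bile salt export pump gene *Abcb11* differed from sham by 0.17 (SE 0.14, adjusted p = 0.345), and was called higher when libraries were weighted. Among 15 tested bile acid transporters, 5 rose and *Slco1a1* fell on the deposited values, so that the share called higher was near the 27.9% of all genes. After centring 5 were higher and 5 lower, where 10.7% of all genes were called higher and 8.93% lower. The basolateral exporters *Abcc4* and *Abcc3* and the drug pump *Abcb1a* rose by 1.25, 0.76 and 1.16 (adjusted p = 0.000797, 0.0013 and 0.000745). In the FXR list 1 of 10 genes rose, the exporter subunit *Slc51b* (0.97, adjusted p = 0.00919, and 0.054 with quantile normalization). After centring 1 of the 10 was higher and 4 lower, and without SBR vehicle replicate 2, 3 rose.

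**Figure D3:**
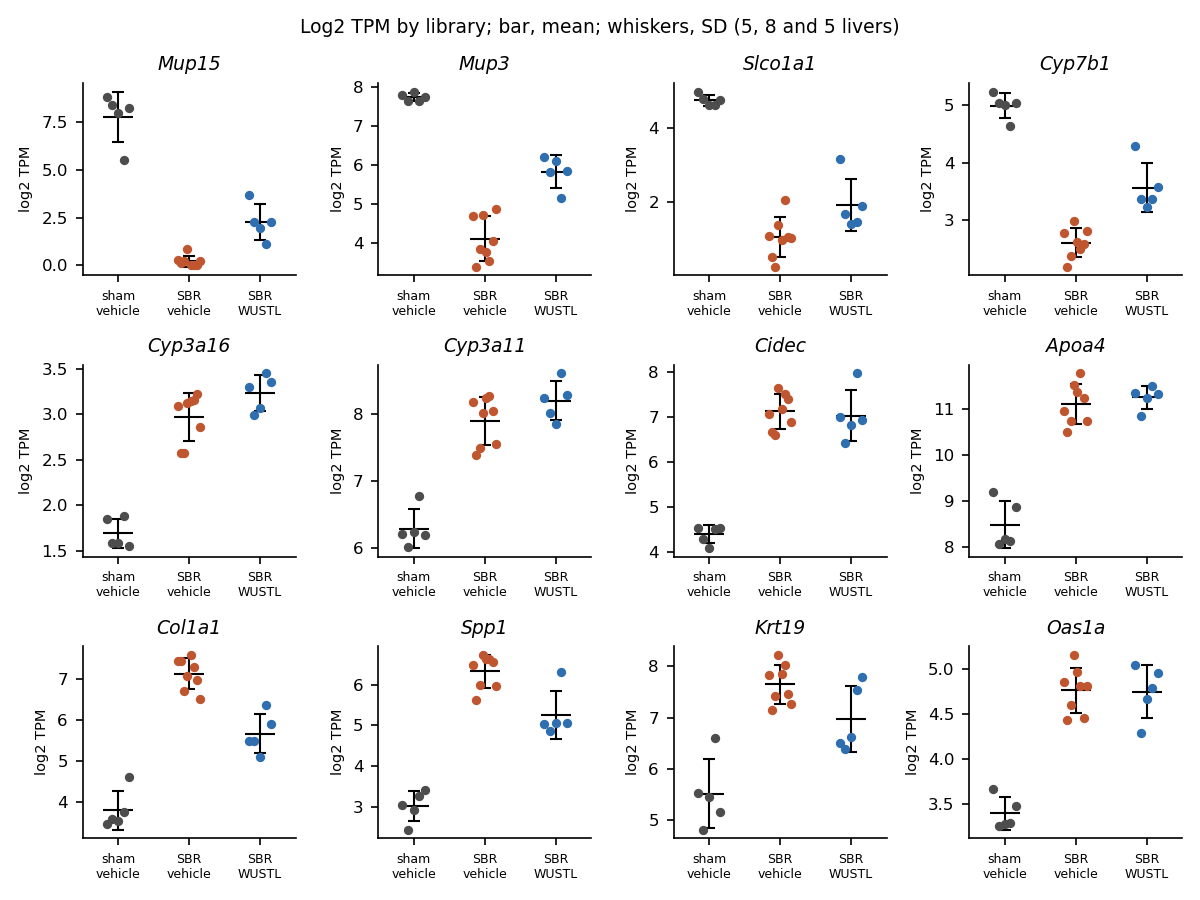
Log2 TPM (y axes, each with its own range) of 12 genes in sham vehicle (5), SBR vehicle (8) and SBR WUSTL0717 (5) livers; points are livers, bars means and whiskers SD. Mup15, Mup3, Slco1a1 and Cyp7b1 are lower in both resected groups than in sham, Cyp3a16, Cyp3a11, Cidec, Apoa4 and Oas1a are higher in both, and Col1a1, Spp1 and Krt19 are higher in both with the treated mean below that of SBR vehicle.

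Matrix genes remained above sham in treated livers. Of 16 tested collagen genes, 12 rose and none fell (12 higher and 1 lower after centring), with a median difference of 0.96. *Col1a1* (chromosome 11, 94936224 to 94953042 in GRCm38), the main collagen of scar, was at 3.45, 3.58, 3.52, 3.75 and 4.60 in sham and at 5.49, 5.49, 5.08, 6.37 and 5.91 in treated livers. Every treated liver was above every sham liver and below every SBR vehicle liver, which lay between 6.52 and 7.60 (median 7.20). Treated minus sham was 1.89 (SE 0.25, adjusted p = 8.12e-05), and treated minus SBR vehicle -1.47 (adjusted p = 0.00401). *Col3a1* was at 4.45, 4.32, 4.30, 4.64 and 5.02 in sham and at 5.96, 5.76, 5.85, 6.96 and 6.27 in treated livers (1.61, SE 0.23, adjusted p = 0.000123), and treated minus SBR vehicle was -1.14 (adjusted p = 0.00722). *Col4a1*, of the basement membrane, and *Col6a3*, of the pericellular matrix, rose by 1.21 and 1.84 over sham (adjusted p = 3.75e-05 and 4.47e-05). Of 25 tested genes of matrix remodelling, 21 rose and none fell (17 higher and 1 lower after centring), among them the proteases *Mmp2* and *Adamts2* (1.49 and 1.21) and the collagen chaperone *Serpinh1* (1.31). For the 16 collagens the median of treated minus SBR vehicle was -0.69 and that of SBR vehicle minus sham 1.72, beside 0.02 and 0.25 over all genes.

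Signals upstream of stellate cells were also above sham. Of 22 tested TGF-beta and PDGF genes, 20 rose and none fell, and 12 were higher after centring. *Pdgfb*, the mitogen of stellate cells, was at 1.87, 1.62, 1.94, 2.00 and 1.98 in sham and at 2.72, 2.63, 2.35, 3.03 and 2.89 in treated livers (0.84, SE 0.13, adjusted p = 0.000261). Its treated values lay above all sham and below all SBR vehicle values. Its receptor gene *Pdgfrb* rose by 1.20, *Ltbp1* and *Ltbp3*, which hold latent TGF-beta in the matrix, by 1.05 and 1.04, and the TGF-beta target *Tgfbi* by 1.13 (adjusted p between 0.000107 and 0.000446). *Tgfb1* itself was at 3.31, 3.11, 3.23, 2.94 and 3.22 in sham and at 3.77, 3.63, 3.07, 3.76 and 3.90 in treated livers, with overlap, and its difference of 0.47 (SE 0.14, adjusted p = 0.021) was not called after centring (adjusted p = 0.379) or without sham replicate 2 or treated replicate 1, 4 or 5. Of 19 tested stellate and myofibroblast markers, 13 rose (10 after centring). The quiescent stellate cell gene *Lrat* rose by 0.58 and the intermediate filament gene *Des* by 0.68 (adjusted p = 0.024 and 0.00288). The call of *Lrat* was lost with quantile normalization, without sham replicate 2 and without treated replicate 4 (adjusted p up to 0.0785), and *Acta2*, smooth muscle actin, differed by -0.11 (SE 0.34, adjusted p = 0.815). In these bulk samples more cells of a type and more RNA per cell cannot be told apart.

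Every tested cholangiocyte and ductular marker, 18 of 18, was called higher in treated than in sham livers (17 after centring, 16 without treated replicate 4), with a median difference of 1.26. Between treated and SBR vehicle livers, 10 of the 18 were called lower. *Ly6d* (chromosome 15, 74762056 to 74763620 in GRCm38), a small membrane protein that was put in this list as an injury marker, was at 1.56, 1.29, 1.93, 2.88 and 1.97 in sham and at 7.24, 5.75, 5.76, 7.96 and 7.50 in treated livers (4.91, SE 0.37, adjusted p = 2.2e-07). *Spp1*, osteopontin, was at 3.04, 2.44, 2.92, 3.26 and 3.40 in sham and at 5.02, 4.86, 5.05, 6.31 and 5.06 in treated livers (2.24, SE 0.26, adjusted p = 2.34e-05). In both genes the groups were far apart and treated replicate 4 was the highest. *Krt7*, a duct keratin, was at 2.01, 1.95, 2.00, 2.34 and 2.04 in sham and at 2.60, 2.37, 2.59, 3.63 and 3.16 in treated livers (0.80, SE 0.20, adjusted p = 0.00868), and *Krt19* at 5.53, 4.82, 5.46, 6.60 and 5.15 and 6.50, 6.39, 6.62, 7.54 and 7.80 (1.46, SE 0.32, adjusted p = 0.00314). All treated livers were above all sham livers in *Krt7*, with replicates 1 to 3 the nearest to sham, and for *Krt19* the groups overlapped. *Epcam*, an adhesion protein of duct cells, and *Anxa13* differed by 1.58 and 1.29 (adjusted p = 0.000484 and 0.000501). Of 15 tested Notch and YAP pathway genes, 11 rose (6 after centring), with the coactivator gene *Wwtr1* at 0.79 and the ligand gene *Jag1* at 0.70 (adjusted p = 0.000579 and 0.00102).

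Of 21 tested markers of Kupffer cells, the resident macrophages of the liver, and of other macrophages, 11 rose and none fell (11 after centring, 11 without treated replicate 4). *Gpnmb*, a glycoprotein of lipid-laden macrophages, was at 0.33, 0.32, 0.33, 0.28 and 0.56 in sham and at 3.01, 2.10, 2.01, 3.04 and 3.19 in treated livers (2.31, SE 0.22, adjusted p = 2.43e-06). The dendritic and macrophage integrin gene *Itgax* rose by 1.31 and the chemokine receptor gene *Cx3cr1* by 1.23 (adjusted p = 0.000101 and 0.000107). Of the 5 genes fixed as defining Kupffer cells none was called. Among them *Clec4f* and *Timd4* differed by 0.34 (SE 0.23, adjusted p = 0.245) and -0.05 (SE 0.24, adjusted p = 0.884). Between treated and SBR vehicle livers they differed by 0.75 (adjusted p = 0.0459) and 0.76 (adjusted p = 0.05). *Clec4f* was called higher than sham in 3 of 30 other settings, with a smallest adjusted p of 0.0189. Of 13 lymphoid and neutrophil markers 3 were called higher, 1 after centring and 1 without treated replicate 4 or without sham replicate 2, a smaller share than the 27.9% of all genes before and the 10.7% after centring. Among the 3 was the neutrophil receptor gene *Csf3r* at 0.83 (adjusted p = 0.0113). The pan-leukocyte gene *Ptprc* rose by 0.57 (adjusted p = 0.00915). *Tnf* was at 0.75, 0.57, 0.89, 1.11 and 0.80 in sham and at 1.13, 1.10, 0.85, 1.83 and 1.92 in treated livers, an overlapping difference of 0.54 (SE 0.22, adjusted p = 0.0649). *Tnf* was called higher in 6 of 29 other settings, with a smallest adjusted p of 0.0136. Among 20 cytokine and chemokine genes 10 rose and 1 fell (9 higher and 2 lower after centring), with *Ccl3*, a monocyte chemokine, at 1.12 and *Vcam1*, an adhesion molecule, at 1.19 (adjusted p = 0.000412 and 0.000774).

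Interferon-stimulated genes, many of which carry response elements called ISRE, were above sham in 24 of 29 tested cases and below it in none (14 after centring, 19 without treated replicate 4). *Ifi27l2b*, a member of the Ifi27 family, was at 5.62, 4.91, 5.62, 5.91 and 5.48 in sham and at 8.20, 7.50, 7.87, 8.46 and 8.23 in treated livers (2.55, SE 0.21, adjusted p = 3.68e-07). *Oas1a*, an antiviral nucleotide synthetase, was at 3.67, 3.26, 3.29, 3.29 and 3.48 in sham and at 5.04, 4.29, 4.67, 4.79 and 4.96 in treated livers (1.35, SE 0.15, adjusted p = 1.4e-05). Neither gene overlapped between the groups. The transcription factor gene *Irf7* and the deconjugating protease gene *Usp18* rose by 1.34 and 1.27 (adjusted p = 0.000193 and 0.0003). None of the 29 was called between treated and SBR vehicle livers, where their median difference was -0.07. Of 21 list genes with a RefSeq promoter, 14 held the core of an ISRE (GAAA, any 2 bases, GAAA) on either strand, as did 3.44% of all promoters. Of the 18 called genes among them, 12 held it. The 2 called genes with a match and the smallest p were *Oas1a* and *Bst2* (0.95, adjusted p = 0.000594), which encodes tetherin, a surface protein that holds back virus particles. Their promoters, both on the minus strand, are shown with the matches in capitals. They lie at chr5:120907476-120907775 and chr8:71537423-71537722 (GRCm38.p6).
Oas1a: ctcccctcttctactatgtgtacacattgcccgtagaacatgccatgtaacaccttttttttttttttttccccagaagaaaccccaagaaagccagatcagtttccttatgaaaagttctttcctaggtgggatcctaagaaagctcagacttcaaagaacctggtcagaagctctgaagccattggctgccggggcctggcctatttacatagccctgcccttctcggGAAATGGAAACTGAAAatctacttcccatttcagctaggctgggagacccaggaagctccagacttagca
Bst2: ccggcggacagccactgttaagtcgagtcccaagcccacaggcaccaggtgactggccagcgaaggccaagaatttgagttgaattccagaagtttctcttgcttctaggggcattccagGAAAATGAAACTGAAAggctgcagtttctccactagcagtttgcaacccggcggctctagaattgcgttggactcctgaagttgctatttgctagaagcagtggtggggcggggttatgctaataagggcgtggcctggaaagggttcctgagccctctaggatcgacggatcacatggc
In each, a pair of matches overlaps, starting 20 and 14 bases before the gene start of *Oas1a* and 130 and 124 bases before that of *Bst2*. Of 21 tested MHC genes, 16 rose (12 after centring). *H2-Q1*, a class I gene, was at 5.47, 4.97, 5.18, 5.52 and 5.31 in sham and at 6.90, 6.86, 6.99, 7.23 and 6.99 in treated livers and had the smallest p of all named genes that rose (1.70, SE 0.12, adjusted p = 5.99e-08). The class II genes *H2-Eb1*, *H2-Aa* and *H2-DMb1* rose by 1.13, 1.07 and 0.86 over sham and were lower than in SBR vehicle livers by 0.75, 0.65 and 0.43 (adjusted p = 0.012, 0.026 and 0.0344).

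Named immediate early and cell cycle genes were above sham. Of 21 tested immediate early genes, 12 rose and none fell (8 after centring). *Jun*, a subunit of AP-1, was at 4.71, 4.68, 4.68, 5.03 and 4.82 in sham and at 6.57, 6.30, 5.85, 6.69 and 6.72 in treated livers (1.64, SE 0.16, adjusted p = 4.27e-06). *Myc*, *Klf6* and *Atf3*, transcription factors of growth and stress, rose by 1.83, 1.45 and 2.09 (adjusted p = 0.000181, 0.00022 and 0.000393). Of 33 tested cell cycle genes, 21 rose and none fell (16 after centring). *Ccnd1*, cyclin D1, was at 4.56, 3.45, 3.72, 3.87 and 4.02 in sham and at 5.83, 5.94, 6.12, 6.99 and 5.81 in treated livers (2.21, SE 0.23, adjusted p = 4.82e-06). Treated replicate 4 was the highest, and the groups did not overlap. The mitotic activator gene *Cdc20* and the proliferation marker gene *Mki67* rose by 1.95 and 1.44 (adjusted p = 0.000263 and 0.00217). Of 47 tested histone genes, 23 rose, 13 after centring and 13 without treated replicate 4, and these near-identical copies are also uncertain singly. In glucose metabolism, 5 of 22 genes rose (5 higher and 3 lower after centring, 8 higher without SBR vehicle replicate 2), a smaller share than the 27.9% of all genes on the deposited values and a larger one than their 10.7% after centring, among them hexokinase 2, *Hk2* (1.04, adjusted p = 4.73e-06), and *Pgd* and *G6pdx* of the pentose phosphate pathway (1.13 and 0.65, adjusted p = 0.000499 and 0.00406). Of 15 iron genes, 9 rose (3 after centring, 5 without treated replicate 4), with the ferritin gene *Ftl1* at 0.79, the BMP target *Id1* at 1.83 and hemojuvelin, *Hjv*, at 0.69 (adjusted p = 0.000101, 0.000158 and 0.00105).

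**Figure D4:**
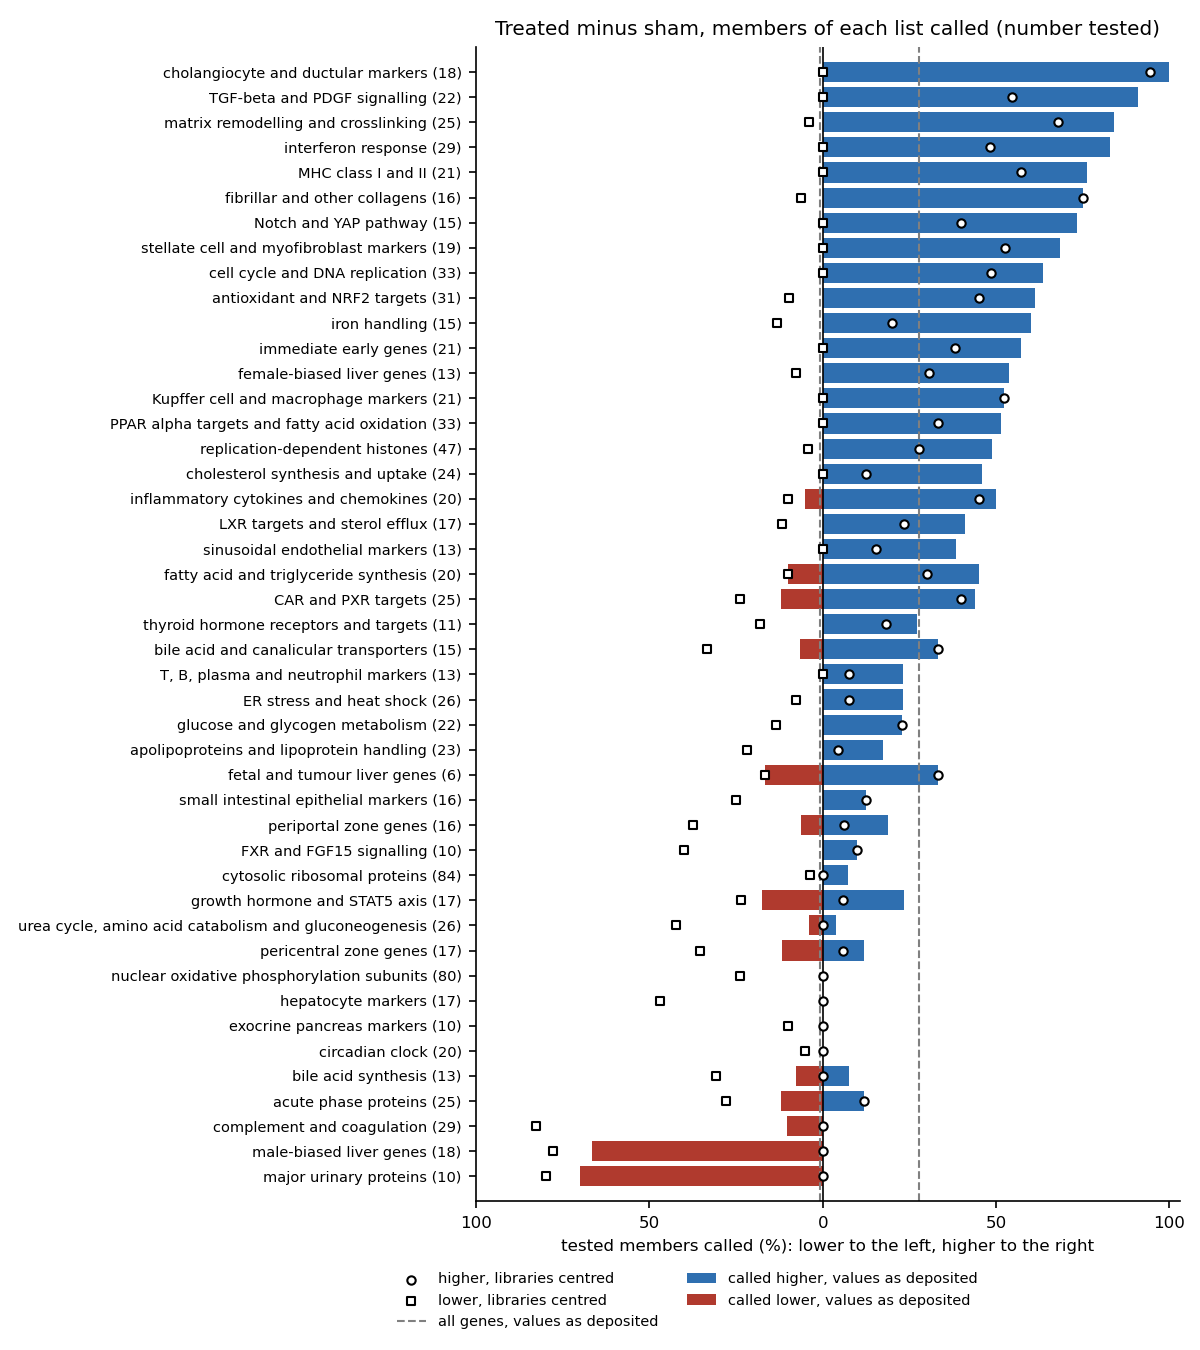
Share of the tested members of 45 gene lists (number tested in parentheses) called higher (right) or lower (left) in treated than in sham livers, on the deposited values (bars) and with libraries centred on their medians (circles higher, squares lower); dashed lines are the shares over all genes, 27.9% higher and 0.906% lower. Cholangiocyte markers, signalling, matrix and interferon genes lie above the dashed line with both scalings, and the male-biased genes and major urinary proteins lie to the left.

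On the deposited values, few genes of the hepatocyte's constitutive work were called. None of 17 hepatocyte markers was called, and albumin, *Alb*, differed by -0.09 (SE 0.21, adjusted p = 0.762). After centring, 8 of the 17 were lower. Likewise none of 80 nuclear genes of oxidative phosphorylation and none of 20 clock genes was called, and after centring 19 and 1 of them were lower. Without SBR vehicle replicate 2, 8 of the 80 were called higher and 1 hepatocyte marker lower. Of 29 complement and coagulation genes, 3 fell (5 without SBR vehicle replicate 2, with 1 higher), and 24 were lower after centring. The 3 are *C8a* and *C8b*, subunits of the membrane attack complex (-0.83 and -0.74, adjusted p = 0.00386 and 0.00248), and the clotting factor gene *F7* (-0.41, adjusted p = 0.0445, a call lost without most single libraries). Of 25 acute phase genes, 3 rose and 3 fell (3 higher and 7 lower after centring, 7 and 4 without SBR vehicle replicate 2), with the lipocalin gene *Lcn2* at 1.86, serum amyloid *Saa4* at -0.62 and the serpin gene *Serpina3k* at -0.94 (adjusted p = 0.00592, 0.00274 and 0.00409). Of 26 genes of the urea cycle, amino acid catabolism and gluconeogenesis, the histidine-degrading enzyme gene *Hal* fell (-0.88, adjusted p = 0.00881) and the transaminase gene *Gpt2* rose (0.54, adjusted p = 0.026, after centring 0.137), and 11 were lower after centring. Of these 26, 2 fell without SBR vehicle replicate 2 or without sham replicate 2, and none rose without treated replicate 4 or sham replicate 2. Of 17 pericentral genes, 2 rose and 2 fell (1 higher and 6 lower after centring, 4 higher without SBR vehicle replicate 2, 1 higher and 1 lower without treated replicate 4, 1 higher without sham replicate 2). Among them *Cyp2c50* and *Cyp1a2* fell by 0.62 and 0.36, and *Slc1a4* and the Wnt target *Axin2* rose by 1.09 and 0.76 (adjusted p = 0.028, 0.0373, 0.00238 and 0.026), with *Axin2* not called after centring (adjusted p = 0.137). Thyroid hormone receptor beta, *Thrb*, was near sham on the deposited values (-0.16, SE 0.12, adjusted p = 0.322) and lower after centring (-0.46, adjusted p = 0.000224). Of 84 ribosomal protein genes, 6 were called higher, none after centring (3 lower), 1 without treated replicate 4 or sham replicate 2, and 36 without SBR vehicle replicate 2.

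Levels of other marker lists were checked in the same libraries. None of 10 pancreas markers was called, and their mean level was between 2.11 and 2.21 in sham, 2.05 and 2.17 in treated and 2.03 and 7.35 in SBR vehicle livers. Of 16 intestinal epithelial markers, *Apoa4* and the lysozyme gene *Lyz1* (0.81, adjusted p = 0.0153, and 0.0531 with quantile normalization) were called higher. After centring 2 of the 16 were higher and 4 lower, 4 were higher without SBR vehicle replicate 2, and what part gut epithelium had in these values was not tested. The mean level of the 16 was between 5.19 and 5.32 in sham, 5.49 and 5.74 in treated and 5.36 and 5.75 in SBR vehicle livers, which are values after the batch correction and do not by themselves show expression. Of 13 endothelial markers 5 were called higher, 2 after centring, 2 without treated replicate 4 or without sham replicate 2, and 11 without SBR vehicle replicate 2, beside 27.9% of all genes and 10.7% after centring, with *Lyve1* at 0.96 and *Stab1* at 0.48 (adjusted p = 0.00758 and 0.0104). In the next 4 lists the share called higher was below the 27.9% of all genes, and after centring it was below their 10.7% except for thyroid hormone. Of 26 genes of ER stress and heat shock, 6 rose (2 higher and 2 lower after centring). Of 23 genes of lipoprotein handling, 4 rose (1 higher and 5 lower after centring, 2 higher without treated replicate 4 or without sham replicate 2, and 1 lower without SBR vehicle replicate 2). Of 11 thyroid hormone genes, 3 rose (2 higher and 2 lower after centring). Of 16 periportal genes, 3 rose and 1 fell (1 higher and 6 lower after centring, 2 lower without SBR vehicle replicate 2 or without sham replicate 2). Of 6 tested fetal liver genes, *Scd2* and the tetraspanin gene *Cd63* (1.65, adjusted p = 0.000193) rose and the trefoil peptide gene *Tff3* fell (-1.74, adjusted p = 0.00748), while *H19*, an imprinted RNA, differed by 0.96 (adjusted p = 0.0842) from sham and by -1.84 (adjusted p = 0.0128) from SBR vehicle livers.

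The named genes with the smallest p and no overlap that fall in none of these groups follow. *Ttc39a* and *Ttc39aos1*, which lies next to it on the other strand, rose by 2.14 and 2.49. The RNA-binding protein gene *Rbm24* rose by 2.15, *Uap1l1*, of the nucleotide sugar pathway, by 1.57, the solute carrier gene *Slc35f2* by 1.50, the oxysterol-binding protein gene *Osbpl3* by 2.27 and *Ccdc120* by 2.00 (adjusted p between 2.2e-07 and 3.21e-06). *Rbm24* was at 0.32, 0.31, 0.39, 0.41 and 0.30 in sham and at 2.38, 2.41, 2.24, 2.85 and 2.58 in treated livers, with no overlap. Lower were the calpain gene *Capn8* (-1.05), the adhesion molecule gene *Cadm4* (-1.13), the complement inhibitor gene *Susd4* (-1.76) and the organic anion transporter gene *Slc22a28* (-0.99), with adjusted p between 2.6e-06 and 0.000287. *Cadm4* was at 2.70, 2.71, 2.91, 2.72 and 2.85 in sham and at 1.95, 1.50, 1.43, 1.88 and 1.46 in treated livers, with no overlap, and treated minus SBR vehicle was -0.22 (adjusted p = 0.38).

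Between treated and SBR vehicle livers, where 2.66% of all genes were called lower and 1.44% higher, further genes named above were called (limma, adjusted p between 0.00401 and 0.0413). Lower in treated livers were the matrix and matrix enzyme genes *Col4a1* (-0.65), *Col6a3* (-1.08), *Adamts2* (-0.75) and *Mmp2* (-1.03), the PDGF and latent TGF-beta genes *Pdgfb* (-0.55), *Pdgfrb* (-0.64), *Ltbp1* (-0.58) and *Ltbp3* (-0.75), the ductular markers *Spp1* (-1.06), *Epcam* (-1.10), *Krt7* (-0.85) and *Anxa13* (-0.73), and the macrophage genes *Itgax* (-0.72) and *Cx3cr1* (-0.91). *Cd63* was lower as well (-0.92). Higher in treated livers were the major urinary protein genes *Mup17* (1.68) and *Mup21* (1.69), the cytochrome P450 genes *Cyp2c23* (0.58) and *Cyp2c50* (1.04), the growth hormone receptor gene *Ghr* (0.55), the secreted protein genes *Saa4* (0.55), *Serpina3k* (0.96) and *C8b* (0.57), and *Susd4* (0.98) and *Slc22a28* (0.68). Both comparisons use the treated livers, so these values are not independent of those against sham.

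A change found only under the drug would set treated livers apart from both other groups. No gene passed a test of this at an adjusted p under 0.05, in which the larger limma p of treated minus sham and treated minus SBR vehicle was taken where both had the same sign, and the smallest adjusted p was 1. At an unadjusted combined p under 0.05 there were 291 genes (1.83%), 278 of them higher and 13 lower. This split is on the deposited values, where 88.38% of all tested genes lay higher in treated than in sham livers. After centring, 270 genes were under that limit, and their directions were not counted. No gene passed under any of 30 other settings either, in which the smallest adjusted p was between 0.133 and 1. The values below are those of the genes with the smallest combined p and are not calls against both groups. *Cyp2b10* (chromosome 7, 25897620 to 25926624 in GRCm38), the classical target of CAR, was at 1.80, 1.43, 1.68, 2.54 and 1.40 in sham and at 3.64, 3.28, 4.10, 4.37 and 4.89 in treated livers, with SBR vehicle livers between 1.91 and 4.24 (median 2.46). It lay 2.29 above sham (adjusted p = 0.000446) and 1.33 above SBR vehicle (adjusted p = 0.0324), with a combined p of 0.000902 before and 1 after adjustment over all genes in limma. *Cyp2b10* was also called higher in SBR vehicle than in sham livers, by 0.96 (adjusted p = 0.029). All treated livers were above all sham livers, and 6 of 8 SBR vehicle livers were below every treated liver. *Tmprss4*, a membrane serine protease, was at 3.47, 3.10, 3.34, 3.66 and 3.38 in sham, 3.99, 3.95, 4.37, 4.79 and 4.49 in treated and between 3.30 and 4.00 (median 3.66) in SBR vehicle livers, and lay 0.93 above sham and 0.64 above SBR vehicle (adjusted p = 0.000804 and 0.0217). *Mgll*, monoglyceride lipase, was at 5.42, 5.40, 5.45, 5.55 and 5.47 in sham, 6.31, 5.92, 6.17, 6.16 and 5.91 in treated and between 5.09 and 5.97 (median 5.58) in SBR vehicle livers, and lay 0.63 above sham and 0.52 above SBR vehicle (adjusted p = 0.00533 and 0.0334). Treated livers were above all sham livers in these 2 genes and overlapped SBR vehicle livers.

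In *Gch1*, the first enzyme of tetrahydrobiopterin synthesis, and *Olig1*, a transcription factor known from the nervous system, the 5 treated livers lay above all 13 others. *Gch1* was at 5.39, 5.17, 5.20, 5.30 and 5.19 in sham, 5.67, 5.60, 5.47, 5.52 and 5.60 in treated and between 4.99 and 5.44 (median 5.30) in SBR vehicle livers, so that the gap to the nearest liver was small beside the spread of SBR vehicle. *Olig1* was at 2.57, 1.86, 2.39, 2.30 and 2.05 in sham, 3.20, 2.84, 2.79, 2.76 and 2.82 in treated and between 1.87 and 2.60 (median 2.35) in SBR vehicle livers. Differences from sham were 0.32 and 0.65 and from SBR vehicle 0.32 and 0.63. *Paqr7*, a membrane progestin receptor, differed by 0.66 from sham and 0.62 from SBR vehicle. *Gch1*, *Olig1* and *Paqr7* were not called against sham after centring. Of the genes with lower values than both, *Adgrf1*, an adhesion receptor, was at 2.11, 1.91, 1.58, 1.37 and 1.99 in sham, 0.85, 1.42, 1.24, 1.30 and 0.67 in treated and between 1.39 and 2.04 (median 1.75) in SBR vehicle livers (-0.69 and -0.63, adjusted p = 0.00991 and 0.0367), with overlap between the groups. *Serpine2*, a protease inhibitor, and the microRNA gene *Mir107* differed by -0.54 and -1.32 from sham and by -0.65 and -0.98 from SBR vehicle. The same part of the rule gave *Igkv8-24*, *Syce3* and *Vsig8*, of which the last 2 were not called against sham. None of them was called against SBR vehicle livers (adjusted p = 0.0913, 0.138 and 0.175). For *Igkv8-24*, 4 of 5 treated and 2 of 8 SBR vehicle livers were at the lowest listed value.

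Over all tested genes, the 5 treated livers were above all 13 others in 18 genes (0.113%) and below all of them in 0 (0%). These counts too are on the deposited values and were not repeated after centring. Chosen after their values were seen, 3 of the 18 with a known place in metabolism or transport are named here. *Sec14l2*, a tocopherol- and squalene-binding protein, differed by 0.39 from sham (adjusted p = 0.0346) and 0.48 from SBR vehicle (adjusted p = 0.0265). *Abcc3* was 0.76 above sham and 0.39 above SBR vehicle (adjusted p = 0.0013 and 0.104), and SBR vehicle livers lay 0.37 above sham (adjusted p = 0.0302). *Mlycd*, malonyl-CoA decarboxylase, differed by 0.28 and 0.26 (adjusted p = 0.0293 and 0.0812). Of these, *Abcc3* was called against sham after centring, and *Sec14l2* and *Mlycd* were not.

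**Figure D5:**
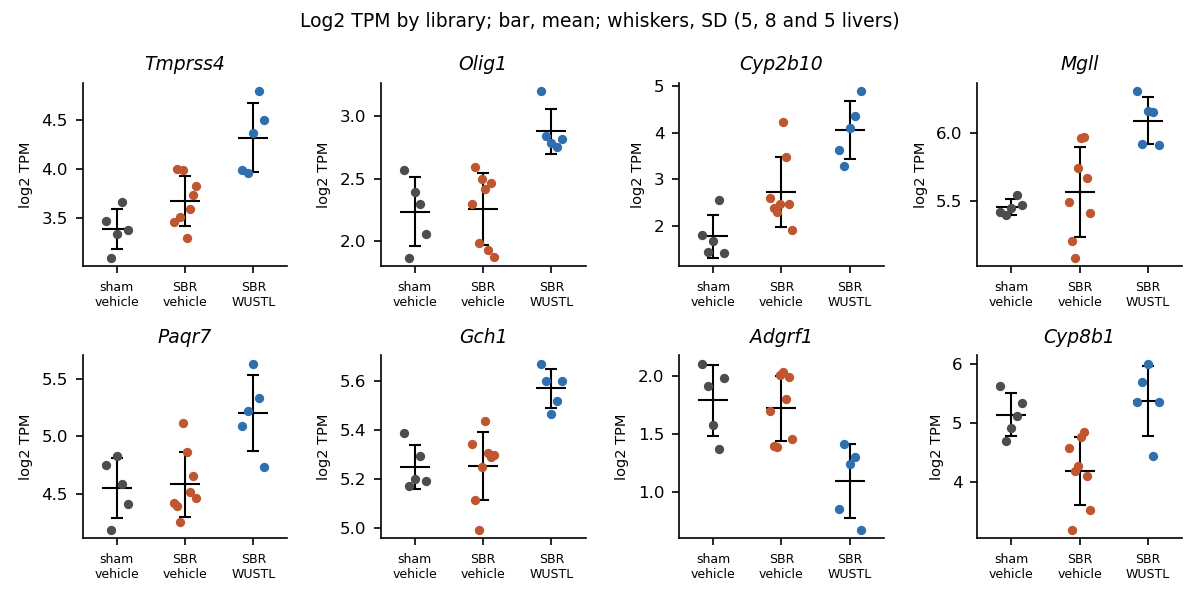
Log2 TPM (y axes, each with its own range) of the 6 genes named as higher and 1 as lower than in both other groups, and of Cyp8b1, in sham vehicle (5), SBR vehicle (8) and SBR WUSTL0717 (5) livers; points are livers, bars means and whiskers SD. Treated livers lie above all others in Olig1 and Gch1, and overlap 1 or both of the other groups in the rest.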

How the data were processed

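RNA of 18 livers was sequenced by the authors. They aligned reads with STAR to GRCm38, counted uniquely aligned, unambiguous reads per Ensembl gene with featureCounts, and calculated TMM size factors. The deposited log2 values are of TPM, which the authors corrected with ComBat, and whether the TMM factors entered the TPM is not given in the sources used here. The methods describe the ComBat step as a correction of batch effects between experimental groups and do not name the batches. In the labels, batch and tissue coincide. The tool names are those of the labels and the study's methods. TPM is relative to each library's total, and ComBat changed the size of differences.

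From these log2 values, genes with a mean of at least 1 over the 18 liver libraries were fitted in limma 3.58.1 (R 4.3.3) with a mean per group (5 sham vehicle, 8 SBR vehicle, 5 SBR WUSTL0717), a variance trend and Benjamini-Hochberg adjustment over all tested genes, two-sided, and called at an adjusted p under 0.05. The table held 15958 genes, of which 15901 passed that minimum. Of the other tissues, 22 libraries were not used. No read totals were given, so no counting error could be computed. Treated livers were set against both other groups with the larger of the 2 p-values.

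Named were, in each direction, 15 called genes without overlap ranked by p and 6 genes ranked by combined p, up to 4 genes of each list with the smallest p, genes the study's text names with *Abca1*, *Srebf1* and *Scd1*, and markers of other cell types. Unnamed transcripts were left out, and not every gene that this rule names is reported here. Members and lists were chosen with earlier results of these data known, and lists have no test of their own. Alternatives were other filters, scalings, pseudocounts (5 and 0.1), variance models, the unmoderated test, fewer groups, a replicate block, a minimum difference and leaving out each library. Gene coordinates are GENCODE M21 (GRCm38). The scripts were tested on simulated data.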

Additional observations from a re-analysis of the deposited data

Results flagged for a closer look

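Within a group, the highest or lowest liver stood apart from the others of that group (Dixon's test) in 42 of 456 groups of the named genes. Chance alone puts about 1 in 20 groups past that limit, and genes of 1 liver are not independent. The values are log2 TPM, with the nearest other liver of the group in parentheses. Treated replicate 4 stood apart in *Abcb1a* at 6.23 (5.25), *Anxa13* at 6.31 (5.40), *Ccnd1* at 6.99 (6.12), *H19* at 1.98 (0.75), *Slc35f2* at 4.83 (4.37), *Spp1* at 6.31 (5.06), *Tgfbi* at 7.72 (7.18) and *Wwtr1* at 4.55 (4.15). Treated replicate 1 stood apart in *Olig1* at 3.20 (2.84), *Slco1a1* at 3.15 (1.89) and *Timd4* at 1.68 (2.34). Treated replicate 2 stood apart in *Igkv8-24* at 3.31 (3.05), where all other treated livers were at the lowest listed value. Sham replicate 2 stood apart in *Abca1* at 5.66 (6.01), *F7* at 3.81 (4.25), *Ghr* at 5.03 (5.34), *Ptprc* at 1.92 (2.22) and *Usp18* at 2.62 (3.00). Sham replicate 4 stood apart in *Acot2* at 3.77 (3.19), *Krt7* at 2.34 (2.04), *Mup15* at 5.51 (7.95), *Mup17* at 3.28 (5.14) and *Slc35f2* at 2.79 (2.91). Sham replicate 5 stood apart in *Col1a1* at 4.60 (3.75), *Gpnmb* at 0.56 (0.33), *Mki67* at 2.55 (2.44) and *Prss2* at 2.14 (1.95). Sham replicate 1 stood apart in *Susd4* at 3.59 (3.12). SBR vehicle replicate 2 stood apart in *Alb* at 8.16 (9.19), *Ccl3* at 1.61 (2.07), *Hmgcs1* at 6.35 (7.55), *Lcn2* at 3.38 (4.88), *Lpl* at 2.35 (3.12), *Ly6d* at 7.05 (7.68), *Pgd* at 5.89 (6.72), *Pparg* at 3.88 (4.39) and *Slc1a4* at 3.11 (3.96). SBR vehicle replicate 4 stood apart in *Mup15* at 0.85 (0.30), *Susd4* at 0.94 (0.50) and *Usp18* at 5.03 (4.27). SBR vehicle replicate 5 stood apart in *Cx3cr1* at 3.97 (3.47). SBR vehicle replicate 6 stood apart in *Tnf* at 2.75 (2.08). SBR vehicle replicate 7 stood apart in *Prss2* at 8.73 (2.16). The most flags fell on SBR vehicle replicate 2 (9) and treated replicate 4 (8), which is also the treated liver farthest from sham on the first principal component.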

How the results depend on the processing

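On the deposited values 4580 genes were called, 4436 higher and 144 lower. Centring gave 1700 higher and 1420 lower, quantile normalization 1788 and 1401, a mean of at least 3 gave 88 lower, library weights 8387 in all (7998 and 389), and a difference of at least 1 gave 447 (412 and 35). Leaving out 1 library gave 2456 to 6727 genes, 2361 to 6544 higher and 95 to 183 lower, with 2688 (2544 higher) without sham replicate 2, 2456 (2361 higher, 95 lower) without treated replicate 4 and 6727 without SBR vehicle replicate 2, and the cause was not tested. The count against both other groups stayed 0 in all 30 settings (194 to 469 genes at an unadjusted p under 0.05). The score on the first component differed by 36.4 to 129.1 under the alternatives for filter and scaling and by 45.3 to 56.6 without 1 library, with an exact permutation p of 0.00794 throughout. That p is the smallest that 5 against 5 can give, so it does not show how far apart the groups were. Replicate numbers did not pair the livers (correlations of deviations between same-numbered treated and sham livers of -0.20 to 0.17, and 1 of 5 treated livers correlated best with its own number), and with the replicate as a block 6688 genes were called, *Cyp2c50* (adjusted p = 0.055) and *F7* (0.068) were not, and *Clec4f*, *H19*, *Tnf* and *Vsig8* were. Of 136 called genes named, 87 kept their call in every setting, and 49 lost it when a difference of at least 1 was required. The 87 are therefore those that met this limit on size, and most named genes were chosen for a small p in the same fit. After centring 9 lost their call and *Mlycd* turned to -0.02, as it did under quantile normalization. Calls of *Ghr*, *F7*, *Cyp1a2*, *Cyp2c50*, *Axin2*, *Hsd17b4*, *Tgfb1*, *Sec14l2*, *Serpine2*, *Igkv8-24*, *Gpt2*, *Lrat* and *Mlycd* were lost without single sham or treated livers, with adjusted p up to 0.107 for *Ghr* and 0.105 for *F7*. Genes uncalled on the deposited values that changed sign were *Abca1* (-0.30 centred, -0.30 quantile, -0.16 with library weights, and -0.08 to 0.07 without 1 library, with a smallest adjusted p of 0.0402 over the settings), *Abcb11* (-0.13 centred, -0.11 quantile), *Cyp8b1* (-0.07 in both), *Prss2* (-0.26 and -0.25), *Acta2* (0.20 with library weights, and -0.40 to 0.08 without 1 library), *Alb* (-0.21 to 0.01 without 1 library) and *Timd4* (0.01 without sham replicate 4, 0.11 without treated replicate 1). *Abcb11* and *Srebf1* were called with library weights, *Tnf* in 6 of 29 settings and *Clec4f* in 3 of 30. Depth is unknown, so low genes carry an error that could not be given. The size of their differences also depended on the setting. Over the settings treated minus sham ran from 0.87 to 3.68 for *Rbm24*, 0.99 to 3.83 for *Gpnmb* and 0.25 to 3.04 for *H19*.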

Other observations

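Of the 11 tested liver genes that the text of the study names, a list chosen on these samples and so no independent evidence, 7 were called higher and 0 lower in treated than in sham livers, and 6 were higher and 1 lower after centring.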
